A study of Mus musculus with 3 samples.

Results

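Transcripts of 7 matrix metalloproteinases (Mmp2, Mmp3, Mmp9, Mmp12, Mmp13, Mmp14 and Mmp19) and of 3 tissue inhibitors of metalloproteinases (Timp1, Timp2 and Timp3) were followed in cardiac myofibroblasts, activated fibroblasts that contract and lay down matrix after injury to the heart, through adhesion, suspension and renewed adhesion. The 10 genes were chosen by name, with earlier results of these data known. Every array probe whose RefSeq identifier maps to one of them was taken, which gave 12 probes on 21 spots. All 10 were among the 15393 genes whose signal was well above background on at least 1 of 3 arrays, a background set drawn from 20660 genes with a named probe.

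The cells came from male C57BL/6J mice whose left anterior descending coronary artery had been ligated for good, with hearts taken 3 days later. The labels give the age as 8 weeks in one field and 10 weeks in another. Cells that attached to plastic overnight and did not carry CD45, a surface protein of leukocytes, were used in all groups. Adherent cells were grown on plastic, non-adherent cells were then held in suspension, and re-adherent cells were put back on plastic afterwards, each step lasting a week according to the methods. Each state has 1 array, hybridised with RNA that the design text describes as mixed from hearts, without making clear how many animals went into each, so no spread between cultures could be computed and no difference was tested. Most cells were lost in suspension according to the methods, and total time in culture grew from state to state, so neither can be told apart from the state itself.

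Matrix metalloproteinases are zinc-dependent enzymes that cut collagens, elastin, laminins and other matrix proteins outside the cell. They are made as inactive precursors, become active when the propeptide is removed, and are blocked by TIMPs, which bind the active site. In the infarcted heart these enzymes clear damaged matrix and shape the scar, and they are made by fibroblasts as well as by macrophages and neutrophils.

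Among the labelled cell type's markers, 14 of 14 fibroblast and myofibroblast genes stood well above background in every state. Their summed level, in multiples of each array's 75th percentile, was 2672 in adherent, 1080 in non-adherent and 2599 in re-adherent cells. That drop was mostly Acta2, smooth muscle actin, and Tagln, transgelin, at -6.64 and -5.98 on the log2 scale in suspension. Of the 14, 6 were over 2-fold lower there, against 14.7% of all measured genes. Over 2-fold higher were 2, against 17.2%, Lum (lumican) at 3.56 and Dcn (decorin) at 1.69, with Postn (periostin) at -0.12. Macrophage markers had summed levels of 262, 1694 and 549. In RNA from a whole culture, fewer cells of a type and less RNA per cell cannot be told apart.

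Promoter sequence was looked up because several metalloproteinase genes are textbook targets of AP-1, the Fos and Jun family of transcription factors. RefSeq promoter windows on GRCm38.p6, from 250 bases before to 50 bases after the listed start, were matched for 7 of the 10 genes, with 8 windows, and none was matched for Mmp2, Mmp9 and Mmp19. An AP-1 motif, TGANTCA, which reads the same on both strands, occurred in 3 of 8 windows, against 7.81% of 32851 mouse windows of the same length. The 3 windows belong to Mmp3, Mmp12 and Mmp13, which lie in the same cluster on chromosome 9, and are printed here 5′ to 3′ on the plus strand with the AP-1 letters in capitals. They lie at chr9:7445572-7445871, chr9:7347124-7347423 and chr9:7272264-7272563.
Mmp3: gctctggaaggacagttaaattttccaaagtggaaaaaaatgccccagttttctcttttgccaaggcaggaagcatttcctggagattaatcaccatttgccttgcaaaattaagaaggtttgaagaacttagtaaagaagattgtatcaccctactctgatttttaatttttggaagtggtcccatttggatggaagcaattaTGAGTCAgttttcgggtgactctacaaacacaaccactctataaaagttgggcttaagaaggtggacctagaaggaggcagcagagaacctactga
Mmp12: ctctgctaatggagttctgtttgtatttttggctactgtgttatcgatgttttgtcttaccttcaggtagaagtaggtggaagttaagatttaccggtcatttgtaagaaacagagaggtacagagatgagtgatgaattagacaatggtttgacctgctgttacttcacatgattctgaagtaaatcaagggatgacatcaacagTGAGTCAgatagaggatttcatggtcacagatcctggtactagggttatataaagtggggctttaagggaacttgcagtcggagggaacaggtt
Mmp13: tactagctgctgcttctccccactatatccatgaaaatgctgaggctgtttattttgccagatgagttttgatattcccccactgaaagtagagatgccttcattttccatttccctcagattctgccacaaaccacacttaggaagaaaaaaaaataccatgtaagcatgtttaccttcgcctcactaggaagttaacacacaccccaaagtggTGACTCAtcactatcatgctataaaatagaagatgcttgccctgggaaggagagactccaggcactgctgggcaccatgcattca

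The capitals begin 46 bases before the listed start in Mmp3, 44 in Mmp12 and 35 in Mmp13. A second Mmp12 window, for another listed start, and the windows of Mmp14, Timp1, Timp2 and Timp3 held no match to these letters. An ETS motif, AGGAAG, searched on both strands, occurred in 6 of 8 windows against 35.4% of all windows. The TATA letters TATAAA, also on both strands, occurred in the same 3 windows as AP-1 and in 13.6% of all. A TEAD motif, GGAATG, occurred in 1 window, that of Timp1, against 14.7% of all. Such matches describe the sequence only, and whether AP-1 acts on these genes in these cells was not tested.

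When cells lost adhesion, 4 of the 7 metalloproteinase genes and 2 of the 3 inhibitor genes differed by over 2-fold, in opposite directions. Mmp2, Mmp3, Mmp9 and Mmp12 were over 2-fold higher in non-adherent than in adherent cells, a size that 17.2% of all measured genes reached. Timp1 and Timp3 were over 2-fold lower, as were 14.7% of all genes. Mmp14, Mmp19 and Timp2 were higher by less than 2-fold, Mmp13 differed by less than 2 technical errors, and the median log2 difference of the 7 metalloproteinases was 1.21. Levels are log2 signals relative to the 75th percentile of each array's probes, and differences are on the log2 scale with the propagated error of the scanner software, which covers the measurement on the array and not the culture. That error had a median of 0.20 per difference over all genes. Signals in units are given before scaling, with 75th percentiles of 651, 697 and 541 units in adherent, non-adherent and re-adherent cells, and folds and differences after it.

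**Figure D1:**
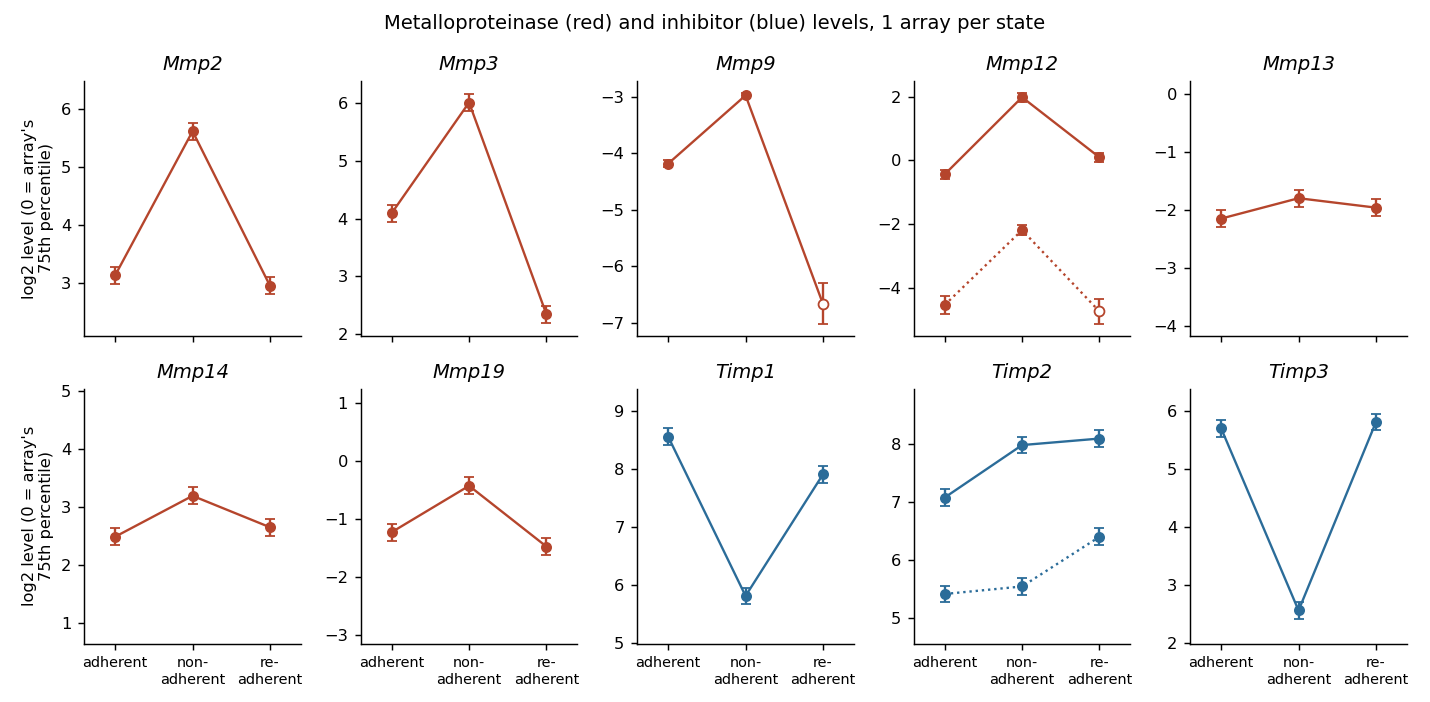
Level of each gene in the 3 states, in log2 units relative to the array's 75th percentile, with 1 array per state, bars of 1 technical error and vertical ranges that differ between panels. Solid lines join the probe used for each gene, dotted lines join a second probe of Mmp12 and Timp2, and open points are not well above background. Mmp2, Mmp3, Mmp9 and Mmp12 peak in the middle state, where Timp1 and Timp3 are lowest.

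Mmp2 encodes gelatinase A, which cuts denatured collagen and basement membrane collagen and is a major metalloproteinase of fibroblasts. Its signal was 5700 units in adherent, 34191 units in non-adherent and 4183 units in re-adherent cells. The non-adherent array thus stood alone at the top, 5.61-fold above the adherent one, a log2 difference of 2.49 ± 0.20 (technical error). Of all measured genes, 4.76% had a larger rise in suspension. On re-adhesion Mmp2 was 6.35-fold lower again, and the re-adherent and adherent levels, 2.95 and 3.13, differed by less than 2 technical errors.

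Mmp9 encodes gelatinase B, an enzyme known from neutrophils and macrophages. It was measured by 1 probe spotted 10 times on each array, which gives a spread within the array. The spots ran from 31.0 to 43.8 units with a median of 35.0 in adherent cells. In non-adherent cells they ran from 72.0 to 107 units with a median of 89.4. In re-adherent cells they ran from 3.69 to 9.71 units with a median of 5.16, and 0 of 10 were well above background there, against 10 of 10 on each of the other arrays. The spots of the 3 arrays did not overlap, which describes the measurement on each array and not the cultures. How many of the 399 probes spotted 10 times separate in this way was not counted, so the lack of overlap cannot be called particular to Mmp9.

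**Figure D2:**
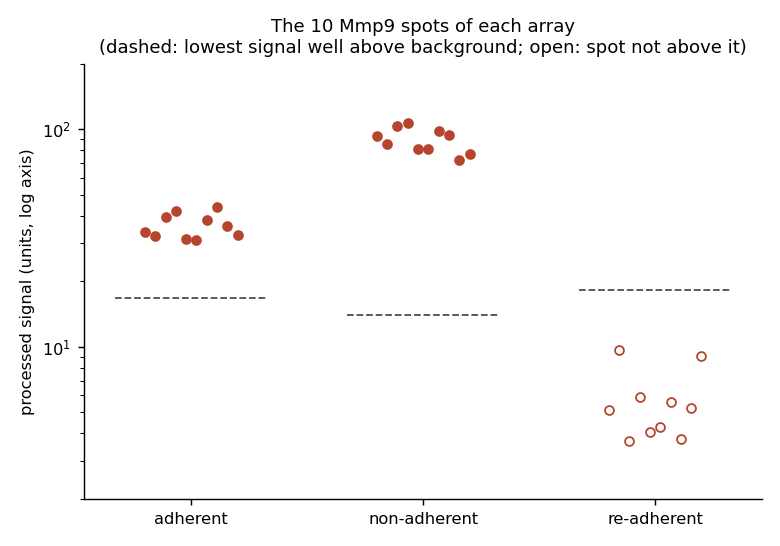
Processed signal of the 10 Mmp9 spots of each array, in units on a log axis, with each array's lowest signal called well above background as a dashed line (16.7, 14.0 and 18.3 units) and open points for spots not well above it. The adherent and non-adherent spots lie above the line, and every re-adherent spot lies below it.

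The spots' log2 levels had SDs of 0.18, 0.19 and 0.49 in adherent, non-adherent and re-adherent cells. The difference in suspension was 1.21 ± 0.085 (technical error), or 2.31-fold, and 14.3% of all genes had a larger rise. It was short of 2-fold with spike-in scaling, at 0.95, and with another background correction, normexp on spot medians, at 0.54. That setting also added an offset of 50 units and then applied quantile normalization. An offset of that size makes log2 differences between signals as low as these smaller. Because the re-adherent signal was not well above background, the later difference is given as a bound, the level of the brighter array over the lowest level the dim array could call. By this bound Mmp9 was at least 3.75-fold lower in re-adherent than in non-adherent cells and at least 1.62-fold lower than in adherent cells. The bound is not a strict limit, since a signal above that lowest level can fail the call, as a second Mmp12 probe did at 20.1 units. The measured differences were -3.69 and -2.48. With normexp they were -1.08 and -0.54, smaller than the bounds, which are 1.91 and 0.70 on the log2 scale.

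Mmp3 encodes stromelysin 1, which cuts proteoglycans and laminin and activates the precursors of other metalloproteinases. Its signal was 11097 units in adherent, 44647 units in non-adherent and 2747 units in re-adherent cells. The gene was 3.76-fold higher in suspension, a log2 difference of 1.91, and 12.6-fold lower on re-adhesion, a difference of -3.66. Of all genes, 1.20% had a larger fall at that step. Unlike Mmp2, Mmp3 did not return to its starting level but ended 3.36-fold below it, at -1.75 ± 0.20.

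Mmp12 encodes macrophage elastase, which cuts elastin and is best known from macrophages. The probe used here gave 479 units in adherent, 2746 units in non-adherent and 576 units in re-adherent cells. It was 5.36-fold higher in suspension, a log2 difference of 2.42, and 5.12% of all genes had a larger rise. It was 3.70-fold lower on re-adhesion and ended 1.45-fold above the adherent level, a difference of 0.53 that was 0.07 with spike-in scaling and 0.17 as the mean over probes. A second Mmp12 probe with dimmer signals of 27.9, 152 and 20.1 units had a difference of 2.35 ± 0.32 in suspension, close to the first, and was not well above background in re-adherent cells, where its measured value lay below the adherent one, at -0.20.

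Macrophage markers were, like Mmp12, mostly highest on the non-adherent array. Of 21 macrophage markers listed, 20 had a probe and 19 were measured, with Cd163 above background nowhere and Ccr2 only in suspension. In suspension 18 of 19 were over 2-fold higher, against 17.2% of all genes, with a median log2 difference of 2.69. The exception was Itgam, an integrin subunit shared by myeloid cells, at -0.84. Ptprc, which encodes CD45 itself, gave 355 units in adherent, 2441 units in non-adherent and 532 units in re-adherent cells. On re-adhesion 17 of 19 were over 2-fold lower, against 16.3% of all genes, with a median of -1.62. Re-adherent cells were above adherent ones for 16 of 19, for 10 of them over 2-fold, against 4.84% of all genes. Cx3cr1, a chemokine receptor, was itself highest in re-adherent cells, at 4.62 over adherent ones, and Mertk, a receptor for dying cells, was at -0.03 between those states. Mmp9 went with these markers in suspension but ended below its starting level. Mmp2, at 2.49 and -2.67, and Mmp3, at 1.91 and -3.66, were likewise higher in suspension and lower on re-adhesion, so that order was not particular to Mmp12. The part of macrophage RNA in the Mmp12, Mmp9 or other differences was not tested.

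**Figure D3:**
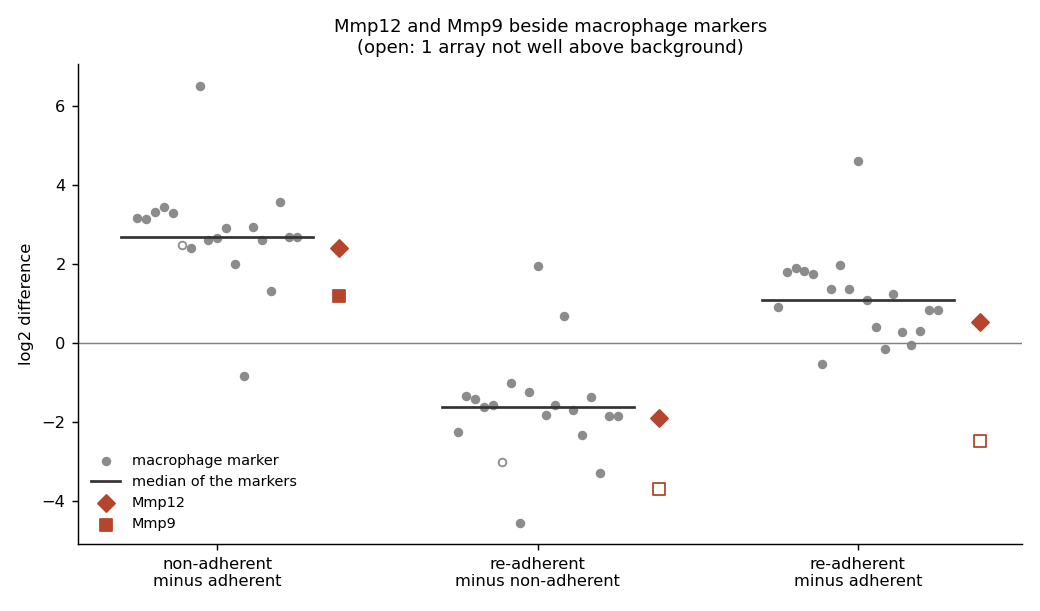
Log2 differences of 19 macrophage markers (grey, with the median of the 19 as a line), Mmp12 (diamond) and Mmp9 (square) between the states, with 1 array per state and open symbols where 1 of the 2 arrays was not well above background. Ccr2 was not well above background in re-adherent or adherent cells and is drawn for that pair as a filled point, at -0.53. Mmp12 lies at 2.42 near the marker median of 2.69 in suspension and at -1.89 near -1.62 on re-adhesion, and Mmp9 lies at -3.69 and -2.48 in the later pairs.

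Markers of other cells that the culture could hold were also examined. Of 10 neutrophil markers 5 were measured, S100a9, Retnlg, Ngp and Cxcr2 were above background nowhere, and the summed level of 104, 95.8 and 85.3 in adherent, non-adherent and re-adherent cells was mostly that of Csf3r, whose differences were -0.20 and -0.11. Camp, a granule peptide of neutrophils, was at 3.28 in suspension and -4.10 on re-adhesion, and S100a8, a calcium-binding protein of myeloid cells, at 1.44 and -2.51, both with the order of Mmp9. Elane, at 0.26 and -0.15, and Mpo, at -1.51 and 0.40, did not have that order, and the part of neutrophil RNA in the Mmp9 differences was not tested. All 10 endothelial markers were measured, 9, 10 and 6 of them well above background on the 3 arrays in turn. Their summed levels of 30.3, 27.3 and 37.3 were mostly those of Kdr and Eng. Kdr was at -0.35 in suspension and 0.74 on re-adhesion, and Eng at -1.39 and 1.72. The median differences of the 10 were 1.85 in suspension, where 7 were higher, and -2.65 on re-adhesion, where 8 were lower. Summed levels ran from 1.75 to 3.97 for mural cell markers and from 1.29 to 3.39 for cardiomyocyte markers.

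Mmp13, Mmp14 and Mmp19 moved less than the other 4 enzymes. Mmp13, a collagenase that opens fibrillar collagen, gave 147, 200.2 and 139 units in adherent, non-adherent and re-adherent cells. Its suspension difference of 0.35 ± 0.21 was within 2 technical errors, so its 3 levels could not be put in order. It had no difference of 2-fold in any pair of states.

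Mmp14 encodes a membrane-bound metalloproteinase that cuts collagen at the cell surface and activates the Mmp2 precursor. It gave 3643, 6360 and 3393 units, 1.63-fold higher in suspension and 1.46-fold lower on re-adhesion. Mmp19, a secreted metalloproteinase of many tissues, gave 279, 521 and 195 units. It was 1.74-fold higher in suspension, short of 2-fold, and 2.07-fold lower on re-adhesion, a difference of -1.05 that was -0.88 with normexp, short of 2-fold. Like Mmp2, both were highest on the non-adherent array, and for both the adherent and re-adherent levels differed by less than 2 technical errors.

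The inhibitors did not act as one group. Timp1, an inhibitor that is induced in many injured tissues, gave 245438 units in adherent, 39070 units in non-adherent and 129991 units in re-adherent cells, and none of these signals was saturated. It was 6.72-fold lower in suspension, a log2 difference of -2.75 ± 0.20, and 2.91% of all genes had a larger fall. On re-adhesion it was 4.28-fold higher, a difference of 2.10, which left it 1.57-fold below the adherent level. That last difference, -0.65, ran from -0.56 to -1.11 over the alternatives and passed 2-fold with spike-in scaling.

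Timp3, the inhibitor that binds to the matrix and also blocks ADAM proteases, gave 33878, 4105 and 30381 units. Its fall in suspension was the largest of the 10 genes, 8.83-fold or -3.14 ± 0.20, and 2.11% of all genes had a larger one. On re-adhesion it was 9.52-fold higher, and the re-adherent and adherent levels of 5.81 and 5.70 differed by less than 2 technical errors, with a sign that turned under 5 other scalings or background settings. Timp3 and Mmp2 were thus close to mirror images over the 3 arrays, both ending within 2 technical errors of the starting level.

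Timp2, which inhibits metalloproteinases and also takes part in activating Mmp2 at the cell surface, gave 87502, 175477 and 147406 units. It was 1.87-fold higher in suspension, a difference of 0.91 that passed 2-fold under no scaling, quantile normalization, normexp and the authors' values, at 1.004 to 1.37, and was 0.52 as the mean over probes. The re-adherent array stood 2.03-fold above the adherent one, a log2 difference of 1.02 that fell below 2-fold under 5 other scalings or background settings. The step from suspension to re-adhesion was 0.11, within 2 technical errors, and turned negative under the same 5. A second Timp2 probe gave 27607, 32326 and 45504 units, so the 2 probes differed on which step carried the increase, 0.91 and 0.11 in the one and 0.13 and 0.86 in the other. They were close on the whole course, at 1.02 and 0.99.

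**Figure D4:**
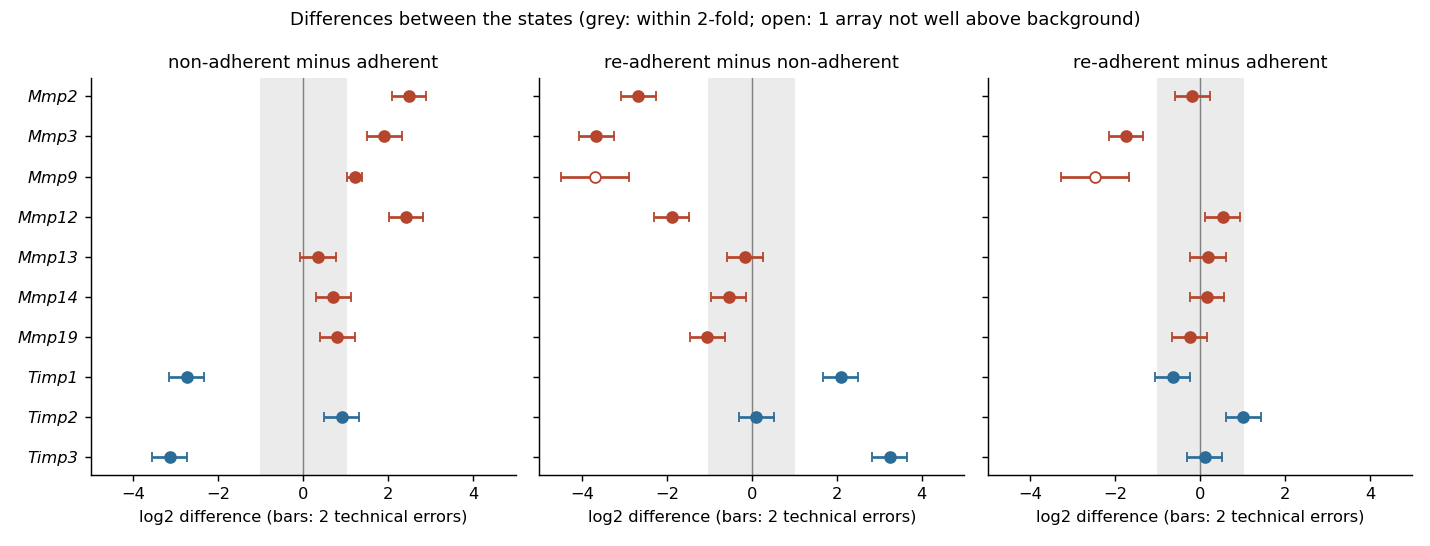
Log2 differences of the 10 genes between each pair of states, with bars of 2 technical errors, the range within 2-fold in grey, and open points where 1 array was not well above background. In the left panel the metalloproteinases (red) lie right of 0 and in the middle panel left of 0, with the bars of Mmp13 crossing 0 in both, and in the right panel 7 of the 10 genes lie within 2-fold, with the signs of Mmp13, Mmp14 and Timp3 there, and of Timp2 in the middle panel, depending on the scaling.

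Set against all measured genes, differences of this size were common in suspension. Because the 10 genes were chosen with earlier results of these data known, the shares below are a description and not a test. Over 2-fold higher in non-adherent than in adherent cells were 4 of the 10 genes (Mmp2, Mmp3, Mmp9 and Mmp12), where 17.2% of all 15393 genes passed that size. Under the alternatives the count ran from 3 to 5, since Mmp9 dropped out under spike-in scaling, normexp and the filter on all 3 arrays, and Timp2 came in under no scaling, quantile normalization, normexp and the authors' values. Over 2-fold lower were 2 of the 10 (Timp1 and Timp3), against 14.7% of all genes. Over 4-fold, 2 were higher (Mmp2 and Mmp12) against 7.61%, and 2 were lower (Timp1 and Timp3) against 5.34%. The median difference of the 10 genes was 0.85, and that of all genes was -0.07.

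Between re-adherent and non-adherent cells, 5 of the 10 were over 2-fold lower (Mmp2, Mmp3, Mmp9, Mmp12 and Mmp19), against 16.3% of all genes, and 4 with normexp, where Mmp19 fell short. Timp1 and Timp3, 2 of the 10, were over 2-fold higher, against 15.6%. Over 4-fold, 3 were lower (Mmp2, Mmp3 and Mmp9, the last by its measured value) against 6.05%, and 2 were higher (Timp1 and Timp3) against 5.70%. The 10 genes had a median of -0.80, and all genes had one of 0.08. Since this comparison shares the non-adherent array with the first, the opposite signs in the pair are not independent of each other.

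Between re-adherent and adherent cells, most of the genes were back within 2-fold. Over 2-fold lower were Mmp3 and Mmp9, 2 of the 10, against 4.90% of all genes, with the bound for Mmp9 short of 2-fold. Timp2 alone was over 2-fold higher, 1 of the 10 against 4.84%. Over 4-fold, 1 gene was lower, Mmp9 by its measured value only, against 1.29%, and 0 were higher, against 1.36%. The median of the 10 was -0.04, and that of all genes was 0.06.

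**Figure D5:**
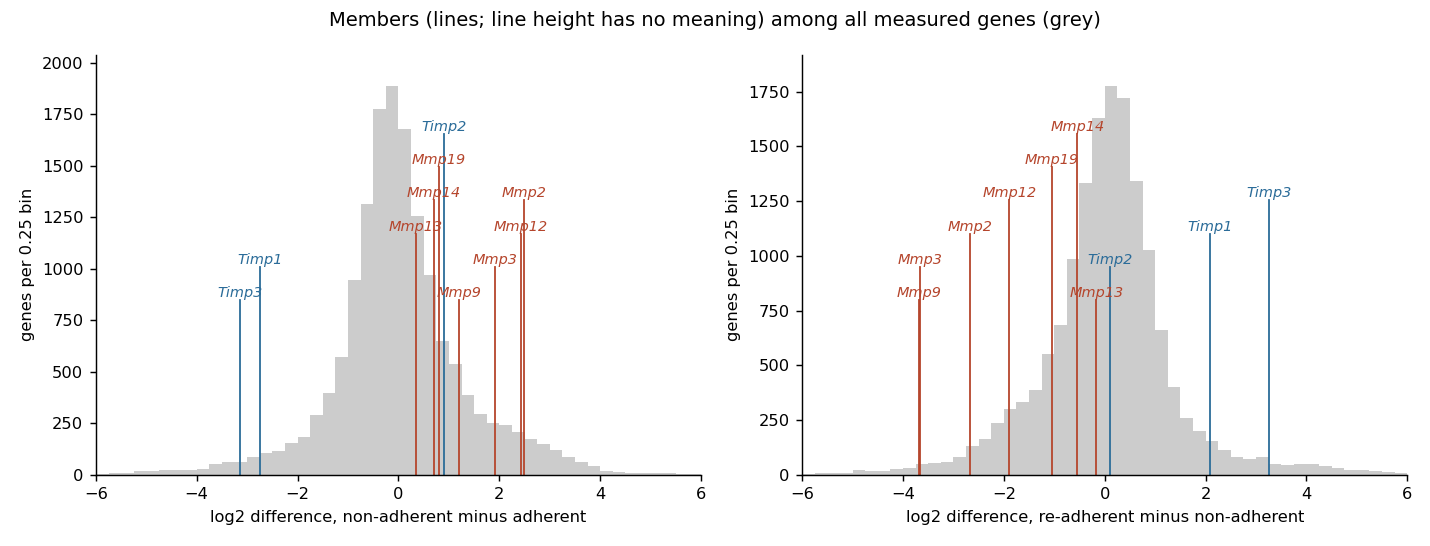
Number of genes per bin of 0.25 log2 units among 15393 measured genes (grey), for non-adherent minus adherent (left) and re-adherent minus non-adherent (right), with lines at the 10 genes' differences whose heights carry no meaning. Timp3 at -3.14 and Timp1 at -2.75 lie in the left tail of the left panel, and Mmp3 at -3.66 lies in the left tail of the right panel, where the line of Mmp9 is its measured value against an array not well above background.

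Of the rest of the family, 17 further metalloproteinase and inhibitor genes were listed, 16 had a probe and 10 were measured, while 6 were above background nowhere. They did not follow the 7 enzymes above as a block, with 2 over 2-fold higher and 4 lower in suspension and a median of -0.45. Of all measured genes, 17.2% were over 2-fold higher and 14.7% lower there. Mmp11, stromelysin 3, gave 2009, 13987 and 1368 units in adherent, non-adherent and re-adherent cells, differences of 2.70 and then -2.99, the order seen for Mmp2. Mmp17, a membrane-anchored metalloproteinase, was lowest where Mmp11 was highest, with 2168, 191 and 804 units, differences of -3.60 and then 2.44. Mmp8, the neutrophil collagenase, gave 593, 662 and 142 units and was lower only on re-adhesion, by 1.85 on the log2 scale.

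Mmp10, stromelysin 2 and a close relative of Mmp3, went against Mmp3. It gave 73.6 units in adherent and 134 units in re-adherent cells, a difference of 1.13, and was not well above background in suspension. It was thus at least 5.62-fold lower in non-adherent than in adherent cells and at least 12.3-fold higher again on re-adhesion. Mmp16, a membrane-type enzyme, had the same order, at least 2.76-fold lower and then at least 5.16-fold higher. Mmp15, another membrane-type enzyme, was well above background only in non-adherent cells, at least 3.02-fold above the adherent array.

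The chromosome 9 cluster holds 10 of the 23 metalloproteinase genes of the assembly, as 10 protein-coding genes in a row. In suspension its measured genes ran both ways. Along the chromosome the differences were 0.35 for Mmp13, 2.42 for Mmp12, -2.57 for Mmp1b, 1.91 for Mmp3, -2.96 for Mmp10 and 0.06 for Mmp8. Mmp1b was well above background in adherent cells only, which makes it at least 3.77-fold lower in suspension. Mmp12 and Mmp3 were therefore high on the non-adherent array beside neighbours that were low there or differed little.

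Genes listed as bearing on metalloproteinase activity, other than TIMPs, numbered 21, of which 20 were measured. In suspension 4 were over 2-fold higher and 6 lower, against 17.2% and 14.7% of all genes, with a median of -0.33. Between re-adherent and adherent cells 0 of 20 differed by over 2-fold, against 4.84% of all genes higher and 4.90% lower. Thbs1, thrombospondin 1, which binds metalloproteinases, had differences of -4.07 and 3.92. Plau, the urokinase-type plasminogen activator, went with the metalloproteinases at 471, 1880 and 477 units, a difference of 1.90 in suspension.

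Pcsk6, a proprotein convertase, was at -3.38 in suspension and 3.20 on re-adhesion, and one of its probes lay in a patch of raised signal on an array. Cav1, which encodes caveolin 1 of the membrane pits called caveolae, was at -3.18 and 3.67, and Tfpi2, a serine protease inhibitor, at -2.60 and 1.63. With Thbs1 they shared the order of Timp1 and Timp3, low on the non-adherent array.

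Transcription factors known to act on metalloproteinase genes were split. Of 13 measured, 5 were over 2-fold higher and 5 lower in suspension, against 17.2% and 14.7% of all genes, with a median of 0.14. Within the AP-1 family, whose letters are printed in the 3 promoters above, Fosb gave 119, 5479 and 108 units, differences of 5.42 and -5.30. Fos was at 3.86 and -5.13, with one of its probes in such a patch, whereas Fosl1 was at -4.40 and 4.60. The AP-1 genes thus differed in sign among themselves.

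Of the ETS and Runx factors, Etv4 was at -2.71 in suspension, Ets1 at -2.08 and Runx2 at -2.11. Runx2 was the factor furthest below its starting level in re-adherent cells, at -1.37, with Fos at -1.27. The other 11 were within 2-fold between those states.

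Matrix proteins that metalloproteinases cut were more often lower than higher in suspension, with 6 of 14 over 2-fold lower and 3 over 2-fold higher and a median of -0.81. Tnc, tenascin C, was at -3.50 in suspension and 2.87 on re-adhesion. Nid1, nidogen 1, was at -1.66 and 1.46, and Lamb1, a laminin chain, at -1.55 and 1.49. Spp1, osteopontin, went with Mmp3 and Mmp12 in suspension at 2.55 and -1.98. Dcn, decorin, gave 45013, 155977 and 13156 units, the same order as Mmp3, and ended below its starting level at -1.51 as Mmp3 did at -1.75. Eln, elastin, gave 62.3, 242 and 157 units and stayed above its starting level at 1.60.

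For 3 of the 10 genes, the genes with the closest profiles over the 3 arrays were listed as a description. They were drawn from 13475 genes well above background on all 3 arrays. Likeness was the Euclidean distance between log2 levels on the 3 arrays, each gene's mean being subtracted first. Such short profiles leave little to tell genes apart. Closest to Timp3 were Cald1, caldesmon, at a distance of 0.042, Flnc, filamin C, at 0.043, and Clca3a1 at 0.066, with 129 genes within 0.5. Closest to Timp1 were Map7d3 at 0.058, Ntn4, netrin 4, at 0.061 and Pnck at 0.063, with 162 genes within 0.5. Closest to Mmp2 were Il2rg, the common gamma chain of interleukin receptors, at 0.033, Slc28a2 at 0.062 and Plxnd1 at 0.069, with 201 genes within 0.5. Within 0.5 of Mmp12, whose closest genes are not named, lay 535 genes.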

How the data were processed

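Total RNA of the 3 states was labelled with Cy3 and hybridised to SurePrint G3 mouse 8x60K arrays, 1 array per state on the same slide and scan. Intensity values are as the authors deposited them: Agilent Feature Extraction 10.10.1.1 output with background-subtracted processed signals, on a design built on mm9, and a value table that equals the processed signal times 1 constant per array (1.52, 1.52 and 1.62 for adherent, non-adherent and re-adherent cells; column medians 60.8, 61.8 and 50.7), with the reason for the constants not given in the sources used here.

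Control spots and outlier flags (154, 180 and 175 spots) were left out, spots of a probe were averaged, and the log2 signal minus the array's 75th percentile (651, 697 and 541 units) was the level. Of 59305 spots per array, 58.1%, 59.9% and 53.9% were well above background, 0 were saturated, and the single array per state limits precision. Probes were named by RefSeq identifier without version (27229 of 55681 probes), and the gene was represented by its brightest probe among those well above background, in the majority of their spots, on at least 1 array. A difference over 2-fold, or 4-fold, was counted, with no p-value. In each list the text names at most 6 genes, those with the largest suspension difference among genes over 2-fold in some comparison and well above background on both of its arrays, beside genes given with bounds. One gene that this rule would name is not reported here. Members and lists were chosen with earlier results of these data known. Differences were recomputed under other scalings (median, none, quantile, spike-in), background settings, filters and probe rules. The background correction planned on spot means could not be made, since that column was not in the files used here, and spot medians were used after seeing the data. The normexp correction on spot medians added an offset of 50 units and was followed by quantile normalization. The calculations were tested on simulated data and run in Python 3.11.15 with numpy 2.4.6 and pandas 2.3.3, and in R 4.3.3 with limma 3.58.1 for normexp.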

Additional observations from a re-analysis of the deposited data

How the results depend on the processing

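With 1 array per state no library could be left out, and normexp on spot means was not run. No paired analysis was possible because the groups share a single number and hold 1 array each. Each of the 30 differences was recomputed under up to 11 alternatives: of 327 values, 240 moved by less than the technical error and 87 by more. Over these alternatives the differences of the 7 metalloproteinases stayed above 0 in suspension and below 0 on re-adhesion, and those of Timp1 and Timp3 the opposite, with Mmp13 as low as 0.096, while 4 of the 30 differences changed sign. Timp2 on re-adhesion went from 0.11 to -0.25 without scaling, -0.71 with quantile normalization, -0.09 with spike-in scaling, -0.73 with normexp on spot medians and -0.16 in the authors' values. Between re-adherent and adherent cells, Mmp13 went from 0.19 to -0.08 without scaling and -0.27 with spike-in scaling, Mmp14 from 0.16 to -0.10, -0.30 and, in the authors' values, -0.01, and Timp3 from 0.11 to -0.16 without scaling, -0.13 with quantile, -0.35 with spike-in, -0.18 with normexp and -0.07 in the authors' values. Mmp9 ran from 0.54 to 1.31 in suspension, from -4.05 to -1.08 on re-adhesion and from -2.94 to -0.54 over the whole course.

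The count of genes higher in suspension ran from 3 to 5 at 2-fold. At 4-fold it went from 4 to 2, and the count lower on re-adhesion from 5 to 3. The count higher in re-adherent than adherent cells went from 1 to 0 without scaling, with quantile, spike-in, normexp, the authors' values and 4-fold, and the count lower from 2 to 1 with normexp, low signals at the floor, only genes well above background on all 3 arrays, and 4-fold. With spike-in scaling that lower count was 3, since Timp1 passed 2-fold at -1.11. The median of the 10 genes in suspension went from 0.85 to 0.60 with spike-in scaling. On re-adhesion it went from -0.80 to -1.16 without scaling, -1.002 with spike-in scaling, -1.07 in the authors' values and -0.54 with genes well above background on all arrays, and over the whole course from -0.04 to -0.30 without scaling and -0.50 with spike-in scaling. The median of all genes shifted by -0.26 in suspension with spike-in scaling and by -0.14 with no filter. On re-adhesion it shifted by -0.36, -0.21 and -0.27 without scaling, with spike-in scaling and in the authors' values, and by 0.19 with no filter. Over the whole course it shifted by -0.27, -0.46 and -0.18 in those 3 scalings. Of 1206 spots in patches of raised signal, 0 were among the 21 spots of the 10 genes.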
